A study of Mus musculus with 11 samples.

Results

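Sult1e1, Akr1c14, Hsd11b1, Srd5a1 and Cyp1b1 encode enzymes that make, inactivate or convert steroid hormones inside the tissue that uses them, and they are described here in the non-adipocyte cells (stromal vascular fraction) of mouse perigonadal white adipose tissue (pgWAT). They are 5 of the 23507 gene rows of a single-cell RNA-seq (scRNA-seq) count table, and all 5 were found in it by their gene symbols. The set was picked from a pattern already seen in these data, that of Sult1e1 and Akr1c14 across cell classes, adipose stem cell subtypes and animals, so the values of these genes are a description and carry no test. Hsd11b1, Srd5a1 and Cyp1b1 were not chosen for their values, although earlier results of these data were known, and are tested over all genes. The cells came from male and female Pdgfrb-GFP reporter mice on a C57BL6/J background, aged 12 to 20 weeks, in which GFP marks cells that express Pdgfrb, and the labels name no treatment. Immune cells positive for CD45 were gated out, and the remaining cells were sorted by the reporter, by CD31 (an endothelial surface protein) and in mouse 2 by DPP4 (a surface protein of the ASC2 subtype). Male mice 1, 4 and 8 and female ids 2, 3, 5 and 6/7 were sampled on 11 plates, where the label 6/7 stands for 2 animals whose cells cannot be told apart. Mouse ids are the replicates, and sex cannot be told apart from plate, because no plate held cells of both sexes.

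The classical sex steroids and glucocorticoids reach fat through the blood, and enzymes of the tissue then set how much active hormone the cells meet. Sult1e1, estrogen sulfotransferase, adds a sulfate group to estradiol and estrone, and the sulfated hormone no longer binds the estrogen receptors. Akr1c14, a 3α-hydroxysteroid dehydrogenase of the aldo-keto reductase family, reduces dihydrotestosterone and other 3-ketosteroids to weaker 3α-hydroxy forms. Hsd11b1 regenerates active corticosterone from its inert 11-keto form inside the endoplasmic reticulum and is well known in adipose tissue, where it depends on NADPH made by H6pd. Srd5a1 is a 5α-reductase that turns testosterone into dihydrotestosterone and also acts on progesterone and glucocorticoids. Cyp1b1 is a cytochrome P450 that hydroxylates estradiol and is a classical target of the aryl hydrocarbon receptor.

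On GRCm38 (mm10) with the GENCODE vM21 annotation, Sult1e1 (ENSMUSG00000029272) lies on the minus strand at chr5:87575969-87591594 and Akr1c14 (ENSMUSG00000033715) on the plus strand at chr13:4049011-4090688. Hsd11b1 (ENSMUSG00000016194) is on the minus strand at chr1:193221634-193264075, Srd5a1 (ENSMUSG00000021594) on the minus strand at chr13:69573449-69611442, and Cyp1b1 (ENSMUSG00000024087) on the minus strand at chr17:79701537-79715061. All 5 are protein-coding, and the values below count reads over their exons. To show where transcription of the 4 genes that differed most between the sexes begins, the 250 bases before the RefSeq start of each (GRCm38.p6) are given 5′ to 3′ on the gene's strand. Capitals mark the letters GGTCA or their reverse complement TGACC, the core of the estrogen response element, and GCGTG or CACGC, the core to which the aryl hydrocarbon receptor binds.
Sult1e1 (chr5:87591612-87591861, minus): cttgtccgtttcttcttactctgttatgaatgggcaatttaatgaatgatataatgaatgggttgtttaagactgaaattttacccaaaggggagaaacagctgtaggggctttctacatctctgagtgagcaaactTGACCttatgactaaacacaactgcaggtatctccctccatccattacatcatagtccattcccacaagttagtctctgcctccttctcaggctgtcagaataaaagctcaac
Akr1c14 (chr13:4059341-4059590, plus): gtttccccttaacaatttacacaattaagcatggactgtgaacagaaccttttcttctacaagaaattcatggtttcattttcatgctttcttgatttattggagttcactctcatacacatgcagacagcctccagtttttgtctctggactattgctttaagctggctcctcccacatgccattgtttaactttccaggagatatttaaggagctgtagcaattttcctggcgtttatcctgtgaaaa
Hsd11b1 (chr1:193242361-193242610, minus): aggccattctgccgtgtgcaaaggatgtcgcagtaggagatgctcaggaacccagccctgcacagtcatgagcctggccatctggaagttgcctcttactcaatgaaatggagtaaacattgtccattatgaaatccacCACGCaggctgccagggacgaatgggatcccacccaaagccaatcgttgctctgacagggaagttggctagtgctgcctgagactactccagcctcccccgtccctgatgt
Cyp1b1 (chr17:79715062-79715311, minus): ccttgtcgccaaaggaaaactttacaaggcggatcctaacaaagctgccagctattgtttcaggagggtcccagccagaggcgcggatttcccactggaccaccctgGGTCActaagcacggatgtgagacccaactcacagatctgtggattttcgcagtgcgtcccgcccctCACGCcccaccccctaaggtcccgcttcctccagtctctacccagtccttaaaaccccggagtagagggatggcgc

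The RefSeq starts of Akr1c14 and Hsd11b1 lie inside the longer GENCODE spans, so these stretches are the promoters of 1 transcript form. GGTCA or TGACC occurred 113 bases before the start of Sult1e1 and 143 bases before that of Cyp1b1, and 35.2% of the 32851 mouse promoters of this length hold it. GCGTG or CACGC occurred 76 bases before the start of Cyp1b1, 111 bases before that of Hsd11b1 and, in the sequence of Srd5a1, which is not shown, 32 bases before the start, against 28.2% of all promoters. The androgen and glucocorticoid receptor letters AGAACA (16.1% of promoters, both strands searched) and the full palindromic elements of the androgen and glucocorticoid receptors (0.00913%) and of the estrogen receptors (0.0639%) were not in any of the 5 windows. Such a match is a description of these letters only.

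Counts of reads were obtained with Smart-seq2, a full-length method without molecular identifiers, from 3261 cells with 149931 to 3548334 reads each, ERCC spike-ins included. By markers, 2249 cells (69%) were adipose stem cell-like (ASC-like: Pdgfra, Col1a1, Dcn and Lum), 768 male and 1481 female, and 560 (17.2%) were endothelial-like (EC-like). The sums of the 4 ASC markers over the ASC-like cells of a mouse ran from 6764 to 20990 CPM (reads of a gene scaled to a common library total), and those of the 4 EC markers from 3.54 to 29.1 CPM. Male ASC-like cells fell mostly into clusters 3, 7, 9 and 12 and female ones into clusters 1, 2, 4, 5 and 6, and the 5 enzymes were not held out of the clustering. Sums of 10 adipocyte genes in ASC-like cells ran from 41.0 to 70.4 CPM in females and from 34.65 to 70.8 in males. A level here is a scaled CPM, the reads of a gene summed over the cells of 1 mouse and class, as CPM and corrected with TMM factors; intervals on shares of cells are exact 95% binomial and cover counting error only. Scaling mattered for the sex contrast: over all genes the median log2 difference, male minus female, was 0.04 with TMM factors and −0.60 with library totals alone, and 69.5% or 28.1% of the genes called were then higher in males.

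Sult1e1 was a transcript of male ASC. Its level in ASC-like cells was 352 scaled CPM in mouse 1, 411 in mouse 4 and 172 in mouse 8. In females it was 0.106 in mouse 2, 0.0618 in mouse 3, 0 in mouse 5 (0 reads, which allows up to 0.0421) and 0.440 in mouse 6/7. The sexes did not overlap, and the lowest male stood far above the highest female, with group means of 312 ± 125 (SD, n = 3) and 0.152 ± 0.197 (SD, n = 4) scaled CPM and a ratio of 2051. The fitted log2 difference was 10.87 ± 1.06 (SE), the fifth largest in size of the 11815 genes tested. Of male ASC-like cells, 96.3% (93.1 to 98.3), 100% (99.0 to 100) and 82.0% (75.2 to 87.6) had a Sult1e1 read in mice 1, 4 and 8. In females this share ran from 0% (mouse 5, up to 3.48) to 1.76% (0.574 to 4.06), and 216 reads were found in 19 of 1481 cells. After each cell was thinned to 100000 reads, the male shares were 70.9%, 97.5% and 72.7%.

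**Figure D1:**
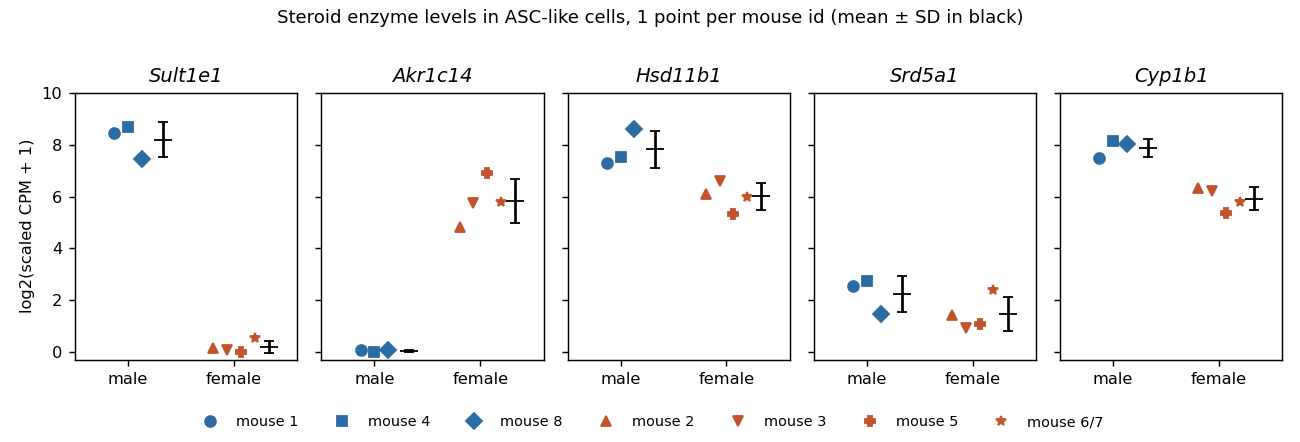
Level of each of the 5 enzymes in ASC-like cells, as log2(scaled CPM + 1), with 1 point for each mouse id and the mean ± SD of each sex in black. In scaled CPM, Sult1e1 stood at 172 to 411 in males and at no more than 0.440 in females, Akr1c14 at 27.4 to 119 in females and at no more than 0.0489 in males.

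The 3 males differed in how their cells carried Sult1e1. A level of 10 CPM in a cell, chosen after the values were seen, was reached by 98.9% of the ASC-like cells of mouse 4 (97.2 to 99.7), by 70.8% of those of mouse 8 (63.1 to 77.7) and by 60.2% of those of mouse 1 (53.8 to 66.4). In mouse 1 a further 88 of 244 cells had a read but stayed under that level, with a median of 3 reads. Other classes of mouse 1 were counted in the same way. The 82 mural-like cells (pericyte-like and vascular smooth muscle-like) of mouse 1, most of them from the plate that held its ASC, had 105 Sult1e1 reads in 41 cells, and 39 of these cells were under 10 CPM. The 4 ASC markers summed to 161.5 CPM in these mural-like cells, and the source of their Sult1e1 reads was not tested. None of the 76 macrophage-like cells of mouse 1, most of them from its CD31-sorted plate, had a Sult1e1 read, which allows a share of up to 4.74%. At least 1 read was thus also seen in other wells of that animal, whereas 2 of 82 mural-like cells and 147 of 244 ASC-like cells reached 10 CPM.

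Akr1c14 was the mirror of this pattern. Its level in female ASC-like cells was 27.4 scaled CPM in mouse 2, 52.4 in mouse 3, 119 in mouse 5 and 53.7 in mouse 6/7. In males it was 0.0355 in mouse 1, 0.00339 in mouse 4 and 0.0489 in mouse 8, from 10 reads in all. The groups did not overlap, with means of 63.2 ± 39.3 (SD, n = 4) and 0.0293 ± 0.0234 (SD, n = 3) scaled CPM and a female to male ratio of 2159. The fitted log2 difference, male minus female, was −11.46 ± 0.94 (SE), the second largest in size. A read was present in 37.6% (34.1 to 41.2), 50% (44.6 to 55.4), 79.8% (70.8 to 87.0) and 62.7% (56.8 to 68.3) of the ASC-like cells of females 2, 3, 5 and 6/7, and in 8 of 768 male cells.

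Akr1c14 was high in a part of the female ASC. At least 10 CPM was reached by 16.6% of the cells of mouse 2 (14 to 19.5), 23.4% of mouse 3 (19.1 to 28.2), 27.8% of mouse 6/7 and 68.3% of mouse 5 (58.4 to 77.1). Over all females, 766 of 1481 cells had no read, 360 had a read under 10 CPM and 355 reached it, while none of the 768 male cells did. Mouse 5, which stood above the other females in level and in share, also had the highest sum of 4 mesothelial markers, 119 CPM against 0.509 to 3.29 in the other females and 0.0218 to 42.4 in males. With the ASC-like cells of over 100 CPM of these markers left out (6 of 104 in mouse 5), the log2 difference of Akr1c14 was −11.48; the part of these markers in the level of mouse 5 was not tested. Reads of both Sult1e1 and Akr1c14 were found in 11 of 2249 ASC-like cells, against 738 with Sult1e1 alone and 712 with Akr1c14 alone. These counts pool the sexes and restate the sex pattern, so they do not show that the genes exclude each other within a cell. In males 1, 4 and 8, both were found in 3, 1 and 4 cells, and Akr1c14 alone in 0 cells of each. In females 2, 3, 5 and 6/7, both were found in 0, 2, 0 and 1 cells. By position, 5.8% of the 50-base windows of the Akr1c14 transcripts also occur in Gm18857, so reads from that part are uncertain, whereas Sult1e1, Hsd11b1 and Cyp1b1 share no such window with another gene.

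**Figure D2:**
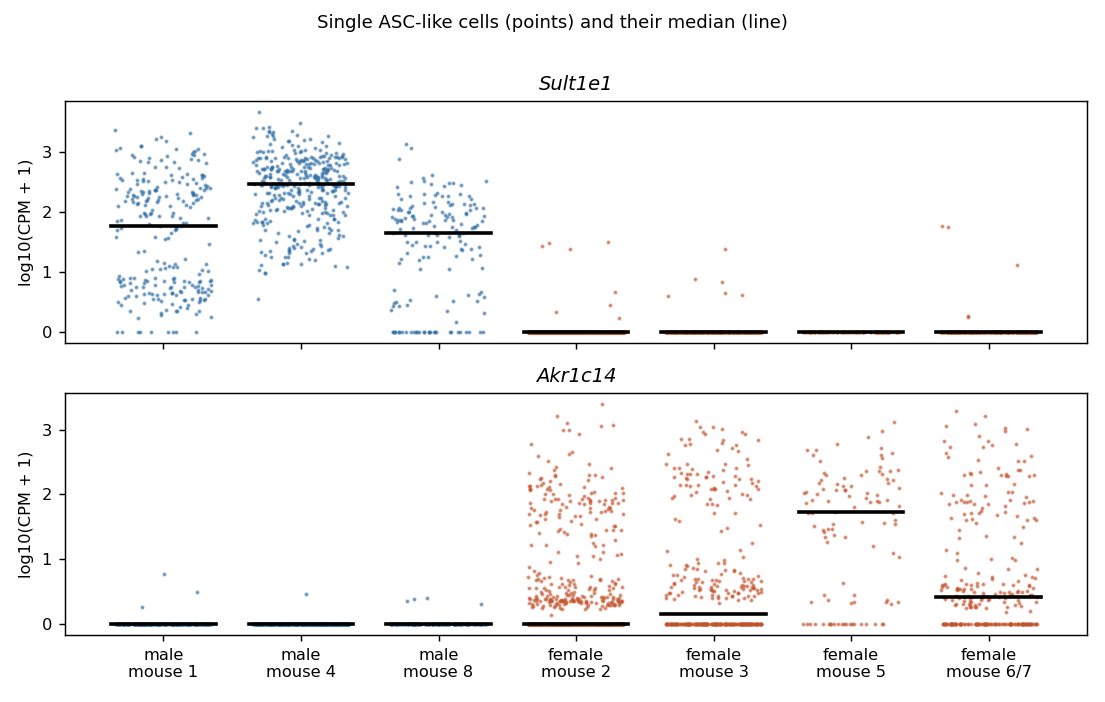
Sult1e1 (top) and Akr1c14 (bottom) in single ASC-like cells of each mouse id, as log10(CPM + 1), with a line at the median cell. Nearly all cells of male mouse 4 lie above 10 CPM of Sult1e1, mice 1 and 8 also hold cells near 0, and Akr1c14 reaches 10 CPM in 16.6% to 68.3% of the cells of a female.

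Cyp1b1 was higher in male ASC. The males stood at 176 (mouse 1), 282 (mouse 4) and 259 (mouse 8) scaled CPM, with a mean of 239 ± 55.6 (SD, n = 3). The females stood at 79.3 (mouse 2), 73.1 (mouse 3), 39.8 (mouse 5) and 53.9 (mouse 6/7), with a mean of 61.5 ± 18.1 (SD, n = 4), and no female reached the lowest male. The log2 difference was 1.92 ± 0.30 (SE; adjusted p = 0.0127, edgeR quasi-likelihood test with Benjamini-Hochberg adjustment over 11815 genes). The call was lost without mouse 6/7 (log2 1.85, adjusted p = 0.0645) and with library totals alone (log2 1.33, adjusted p = 0.134). Cyp1b1 was found in most ASC-like cells of both sexes, with a read in 93.0% to 100% of the cells of a male and in 50% to 86.3% of those of a female.

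Hsd11b1 was also higher in male ASC, with a larger spread. Its level was 156, 184 and 393 scaled CPM in males 1, 4 and 8 (mean 245 ± 130, SD, n = 3). In females 2, 3, 5 and 6/7 it was 68.3, 97.2, 38.6 and 61.5 (mean 66.4 ± 24.1, SD, n = 4), so the sexes did not overlap, and male mouse 8 stood above the rest. The log2 difference was 1.85 ± 0.39 (SE) with an adjusted p of 0.0426 in the edgeR quasi-likelihood test, close to the limit of 0.05. It stayed positive in each of the 15 alternatives, between 1.08 and 2.08, but lost the call in 9 of them, among these the ones without mouse 2, 4, 5, 6/7 or 8. A read was found in 84.8% to 99.4% of the ASC-like cells of a male and in 36.5% to 77.5% of those of a female.

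Srd5a1 was sparse and did not separate the sexes. The males stood at 4.78, 5.63 and 1.75 scaled CPM (mean 4.05 ± 2.04, SD, n = 3) and the females at 1.69, 0.879, 1.11 and 4.24 (mean 1.98 ± 1.55, SD, n = 4), with male mouse 8 below female mouse 6/7. The log2 difference was 1.01 ± 0.64 (SE; adjusted p = 0.409, edgeR), and 1.45% to 23.4% of the ASC-like cells of a mouse had a read. In mouse 8 a single cell gave 70.6% of the 143 reads. Of its transcript windows, 15.1% are shared with Gm17108. Of the 3 members tested, Hsd11b1 and Cyp1b1 were thus called in the sex contrast, against a background of 266 of 11815 genes (2.25%) called at an adjusted p below 0.05 and over 2.6-fold. The same 2 members did not overlap between the sexes, which held for 16.3% of all genes tested.

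Levels can be set between genes only per kilobase of exon, with all annotated exons of a gene merged. On that scale Sult1e1 led in male ASC at 251 ± 100 scaled CPM per kb (SD, n = 3), followed by Hsd11b1 at 57.5 ± 30.5 and Cyp1b1 at 40.9 ± 9.52, which overlap in their spread, then Srd5a1 at 1.39 ± 0.701 and Akr1c14 at 0.00903 ± 0.00722. Female ASC had Akr1c14 at 19.5 ± 12.1, Hsd11b1 at 15.6 ± 5.68 and Cyp1b1 at 10.54 ± 3.10 scaled CPM per kb (SD, n = 4), which do not differ beyond their spread. Below these came Srd5a1 at 0.680 ± 0.531 and Sult1e1 at 0.122 ± 0.159. The transcript forms in use were not tested, and the order rests on the merged exon lengths. Before division by length, Sult1e1 (312 ± 125 scaled CPM) and Hsd11b1 (245 ± 130) overlapped in their spread in male ASC (SD, n = 3).

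Across cell classes, Sult1e1, Hsd11b1 and Cyp1b1 were near 0 in EC-like cells, and Akr1c14 was present there in both sexes. The median ASC-like cell had 669563 reads and the median EC-like cell 518285.5. The EC level of Akr1c14 was 15.6 scaled CPM in male mouse 1 and 19.5 in male mouse 8, against 31.2, 17.7 and 31.3 in females 2, 5 and 6/7. The sexes thus overlapped in EC, where the males stood at 17.5 ± 2.80 (SD, n = 2) and the females at 26.7 ± 7.84 (SD, n = 3), a log2 difference of −0.56 ± 0.57 (SE). Male mice 1 and 8 thus had 5 and 4 Akr1c14 reads in 244 and 161 ASC-like cells, but 1163 and 229 reads in 177 and 29 EC-like cells, of which 9.60% and 17.2% reached 10 CPM. Hsd11b1, Srd5a1 and Cyp1b1 had too few reads in EC-like cells to be tested between the sexes, a contrast in which 0.0494% of 8103 genes were called. The sums of 10 adipocyte genes in EC-like cells ran from 1426 to 2356 CPM in males and from 1947 to 3650 in females, far above those in ASC-like cells, and their part in the EC level of Akr1c14 was not tested. Akr1c14 was also found in the 13 mural-like cells of female mouse 2, at 16.1 scaled CPM from 393 reads, and in the 82 of male mouse 1 at 2.75. The 4 EC markers summed to 4783 CPM in these cells of mouse 2, within the 2112 to 7401 CPM of EC-like cells, and to 393 CPM in those of mouse 1, and the part of EC RNA in these levels was not tested.

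**Figure D3:**
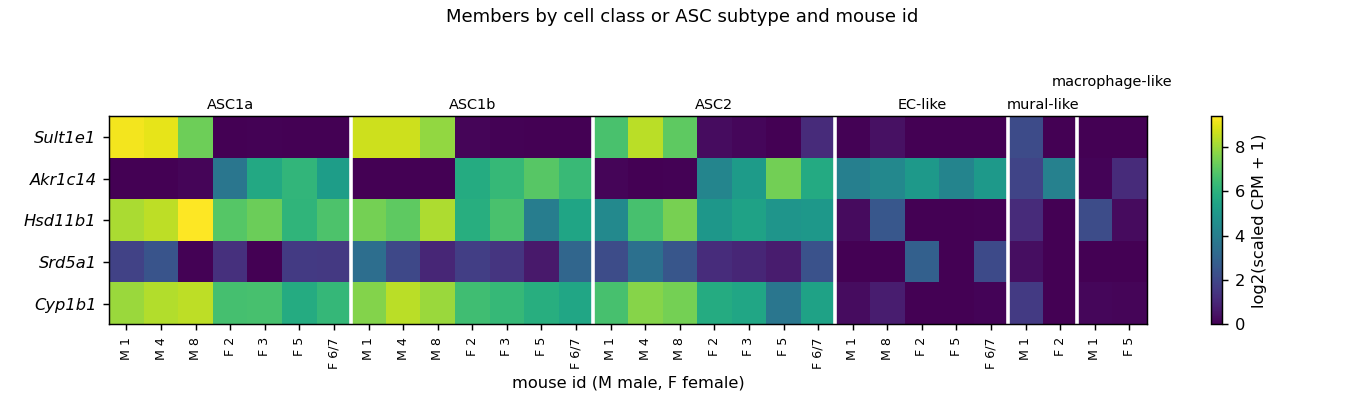
Levels of the 5 enzymes as a colour scale of log2(scaled CPM + 1), by ASC subtype or cell class and mouse id (M male, F female), for sums of at least 10 cells. In scaled CPM, Akr1c14 stands at 15.6 to 31.3 in EC-like cells of both sexes, while Sult1e1, Hsd11b1 and Cyp1b1 are near 0 there.

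Hsd11b1 and Cyp1b1 were transcripts of ASC in both sexes. In EC-like cells Hsd11b1 had 15 and 56 reads in males 1 and 8 and 5, 0 and 4 reads in females 2, 5 and 6/7, and 82.1% of the reads of mouse 8 came from 1 cell. Cyp1b1 had 18 and 8 reads in these males and 3, 0 and 6 in these females. With the mouse as a block over mice 1, 2, 5, 6/7 and 8, ASC-like minus EC-like cells gave a log2 difference of 9.52 ± 0.96 (SE; adjusted p = 0.000327, edgeR) for Hsd11b1 and 9.99 ± 0.73 (adjusted p = 8.96e-05) for Cyp1b1. In this contrast 22.7% of 12198 genes were called. In mice 1, 2 and 6/7 most EC-like cells came from other plates and sorts than most ASC-like cells. Class is thus partly confounded with plate there, which the block does not remove, whereas mice 5 and 8 each had 1 plate. Hsd11b1 and Cyp1b1 entered this test through ASC-like sums alone, since their EC-like sums stayed under the read filter. The adjusted p is thus no independent support for their place in ASC, which rests on the read counts. The classes come from clusters from which these genes were not held out; with each cell classed by its own markers instead, the differences were 9.65 (adjusted p = 0.00129) and 10.01 (adjusted p = 0.000147). Srd5a1 differed by 3.91 ± 2.5 (adjusted p = 0.305) and was not called; its EC reads came from females 2 and 6/7 only, and 1 cell gave 63.3% of the 1489 reads of mouse 2. Sult1e1 had 3 and 4 EC reads in males 1 and 8 and 0 in the females, and its fitted difference, without a test, was 11.02 ± 0.98. For Akr1c14 this difference was −1.44 ± 2.26, which pools males, where ASC stood far below EC, and females, where ASC stood at 27.4, 119 and 53.7 against 31.2, 17.7 and 31.3 in EC of mice 2, 5 and 6/7. Macrophage-like cells had few reads of the 5 genes: among 76 cells of mouse 1 and 61 of mouse 5, the highest were 155 Hsd11b1 reads in 9 cells of mouse 1 and 44 Akr1c14 reads in 13 cells of mouse 5.

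Within ASC, cells were divided into ASC1a, ASC1b and ASC2 by marker scores taken within each mouse. These are ranges of a score and not separate types, and 335 of 2249 cells (14.9%) lay within 0.25 of a boundary. Hsd11b1 fell from ASC1a to ASC2 in 7 of 7 mouse ids. In males it went from 290 to 20.3 scaled CPM in mouse 1, from 346 to 98.7 in mouse 4 and from 655 to 172 in mouse 8. Females 2, 3, 5 and 6/7 went from 117 to 29.9, from 152 to 41.5, from 68.7 to 28.7 and from 106 to 30.7. The log2 difference, ASC2 minus ASC1a with the mouse as a block, was −2.35 ± 0.44 (SE; adjusted p = 0.00470, edgeR) in males and −1.72 ± 0.37 (adjusted p = 0.0105) in females. Without the block the adjusted p was 0.121 and 0.124, and the female call was also lost without mouse 2, 3 or 6/7 (adjusted p = 0.0776, 0.0533 and 0.0704). ASC1b lay between the other subtypes in 6 of 7 mouse ids, and in mouse 5 it was lowest at 14.7.

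Cyp1b1 had a shallower slope over the same subtypes. In males it was 248, 309 and 342 scaled CPM in ASC1a and 98.3, 202 and 168 in ASC2, and in females 96.9, 99.4, 53.4 and 74.1 in ASC1a and 53.5, 45.5, 11.8 and 40.6 in ASC2. The log2 difference was −0.98 (adjusted p = 0.0493, edgeR) in males and −1.21 (adjusted p = 0.00587) in females, lower in 7 of 7 mouse ids, and neither reached the fold limit of 2.6. Srd5a1 had no common direction, with ASC2 above ASC1a in 5 of 7 mouse ids and from 0 to 9.88 scaled CPM in any subtype. Of the 3 members tested, Hsd11b1 was called for ASC2 against ASC1a, where 2.68% of 11149 genes were called in males and 2.23% in females. For ASC1b against ASC1a none was called in either sex, against 0.135% in males and 0.152% in females; Hsd11b1 differed there by −1.07 (adjusted p = 0.323) and −1.19 (adjusted p = 0.303).

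The subtype differences were compared between the sexes as an interaction. For ASC1b against ASC1a, edgeR called 0% of genes, none in all, with 715 at an unadjusted p below 0.05, 18 by the likelihood ratio test and 19 by DESeq2. For ASC2 against ASC1a it called 0.0359%, which did not include a member. The interaction of Hsd11b1, males minus females, was −0.63 ± 0.55 (SE; adjusted p = 0.867) and that of Cyp1b1 0.23 ± 0.36 (SE; adjusted p = 0.947).

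**Figure D4:**
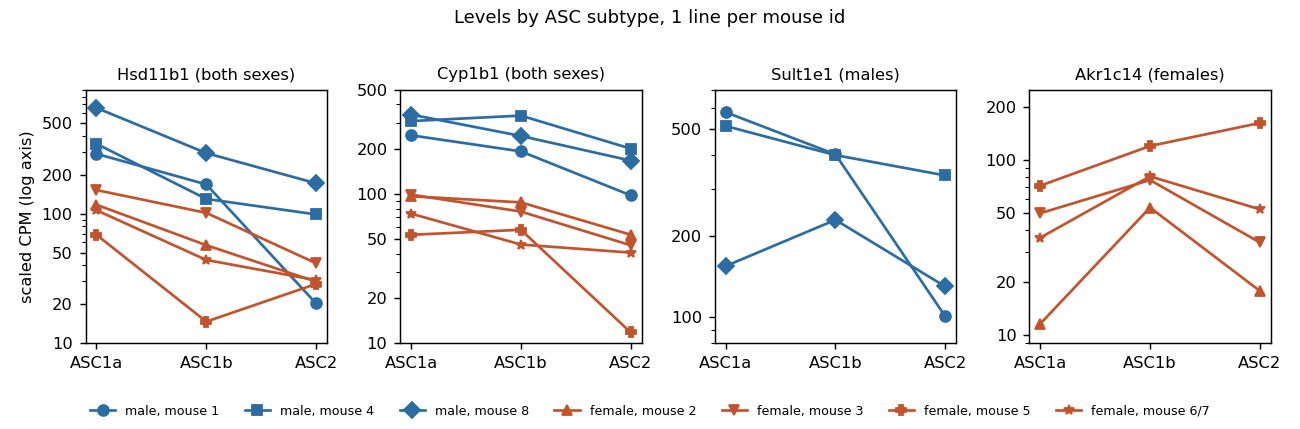
Levels (scaled CPM, log axis) of Hsd11b1 and Cyp1b1 in both sexes, Sult1e1 in males and Akr1c14 in females, in ASC1a, ASC1b and ASC2, with a line for each mouse id. Hsd11b1 is lower in ASC2 than in ASC1a in all 7 mouse ids, and Akr1c14 in females is higher in ASC1b than in ASC1a in all 4.

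Sult1e1 was high in each male subtype. It went from 579 scaled CPM in ASC1a to 403 in ASC1b and 101 in ASC2 of mouse 1, and from 514 to 401 and 337 in mouse 4. Mouse 8 stood at 155, 230 and 130. ASC2 was the lowest subtype in each of the 3 males, and by the share of cells with at least 10 CPM in mouse 1 the subtypes stood at 74.7%, 67.6% and 39.5%. The few female reads were also unevenly placed, with 189 of 216 in ASC2, of which 119 came from mouse 6/7 and 62 from mouse 2. In all, 7 cells held 196 of the 216 reads. Reads of Y-linked genes were found in 9 of the 19 female cells with a Sult1e1 read and in 474 of all 1481 female ASC-like cells, and their part in the Sult1e1 reads was not tested. Akr1c14 in females was higher in ASC1b than in ASC1a in 4 of 4 ids, from 11.6 to 53.4 in mouse 2, from 49.6 to 76.7 in mouse 3, from 71.2 to 120 in mouse 5 and from 36.0 to 80.5 in mouse 6/7. Its ASC2 level was 17.9, 33.8, 162 and 52.2 scaled CPM, highest of the subtypes in mouse 5 alone.

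The DPP4 sorts of mouse 2 give a view of the subtypes that does not rest on marker scores, with 1 plate a sort and no replicate. The DPP4-positive plate held 379 ASC-like cells and the DPP4-negative plate 368, and the column names of the DPP4-positive plate carry a prefix that does not match the PDGFRB gate of its label, so that gate is uncertain. Hsd11b1 stood at 40.5 scaled CPM in the DPP4-positive and 93.6 in the DPP4-negative cells, with a read in 60.9% (55.8 to 65.9) and 87.5% (83.7 to 90.7) of cells. Akr1c14 stood at 14.7 and 38.9, with a read in 23.0% (18.8 to 27.5) and 52.7% (47.5 to 57.9). Cyp1b1 was at 71.2 and 87.5, Srd5a1 at 1.35 and 2.00 and Sult1e1 at 0.175 and 0.0458 scaled CPM. Hsd11b1 was thus lower on the DPP4-positive plate, as it was in ASC2 by markers. The cells of these plates are also in the subtype contrast, and Dpp4 is among the ASC2 markers. The 2 views are thus not independent.

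Around these 5 enzymes, 52 further genes of steroid metabolism were listed by role. Of these, 35 were analysed here and 22 had enough reads for the sex contrast in ASC-like cells. Of these 22, 1 was called higher and 1 lower in males, against 2.25% called of all genes, with a median log2 difference of 0.01 against 0.04 over all genes. Both called genes belong with Hsd11b1 in the interconversion of glucocorticoids. H6pd, which supplies its NADPH, stood at 239, 247 and 322 scaled CPM in males and at 73.8, 131, 72.7 and 52.0 in females (log2 1.68 ± 0.33, SE, adjusted p = 0.0329, edgeR). Hsd11b2, which inactivates corticosterone and so runs the reaction the other way, stood at 1.33, 0.159 and 1.86 in males and at 16.4, 9.16, 13.1 and 25.8 in females (log2 −3.89 ± 0.76, adjusted p = 0.0323). Hsd11b2 entered the sex contrast through female sums alone, the side where it was high. Its adjusted p is thus no independent support for the difference, which rests on these levels. Neither H6pd nor Hsd11b2 overlapped between the sexes, as held for 16.3% of all genes. H6pd lost the call in 7 of 15 alternatives, with library totals alone at log2 1.00 (adjusted p = 0.222), and Hsd11b2 in 6 of 15, with adjusted p up to 0.0961 without mouse 6/7.

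**Figure D5:**
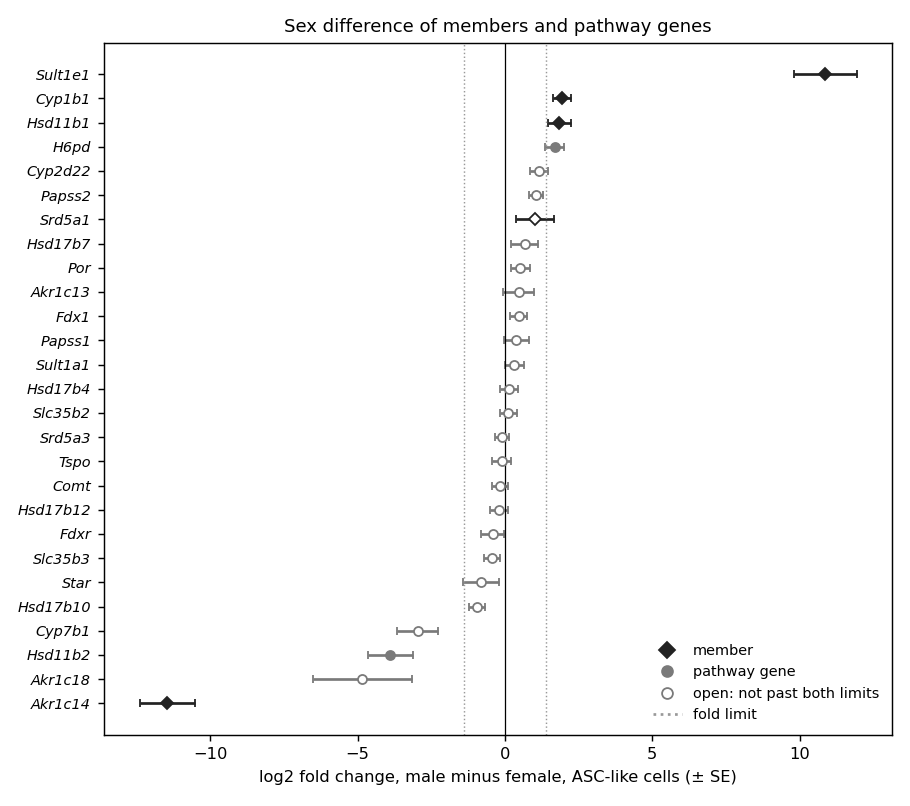
Log2 differences, male minus female, in ASC-like cells for the members and the listed genes of steroid metabolism with enough reads, with bars for the standard error, dotted lines at the fold limit of 2.6 and filled marks past both limits, which is no test for Sult1e1 and Akr1c14. H6pd at 1.68 and Hsd11b2 at −3.89 passed both limits among the listed genes, and Hsd11b2 had entered the test through female sums alone.

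The other lists held values that did not pass the test. Among 5 genes of sulfation, Papss2, which makes the sulfate donor that Sult1e1 uses, stood at 39.8 ± 9.60 scaled CPM in males (SD, n = 3) and 18.8 ± 1.64 in females (SD, n = 4), with an adjusted p of 0.0519 (edgeR). Cyp7b1, a steroid and oxysterol hydroxylase, stood at 2.59 ± 1.92 in males and 19.7 ± 16.6 in females (log2 −2.97, adjusted p = 0.0527). Of the 2 aldo-keto reductases with enough reads neither was called, and Akr1c18, which inactivates progesterone, had a log2 difference of −4.85 (adjusted p = 0.173). None of the 4 genes of the 17β-hydroxysteroid dehydrogenase family and none of the 5 of steroid synthesis was called.

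By subtype, Akr1c18 was the listed gene that was called, and it was higher in ASC2. Its ASC2 level in females 2, 3, 5 and 6/7 was 17.2, 8.51, 103 and 2.92 scaled CPM against 0.122 at most in ASC1a, a log2 difference of 8.32 ± 0.61 (SE; adjusted p = 9.64e-06, edgeR). Akr1c18 entered this test through female ASC2 sums alone, the side where it was high. The adjusted p is thus no independent support for the difference, which rests on these levels. In males the difference was 7.05 ± 0.98 (adjusted p = 0.00105, edgeR), and the call was lost without the block (adjusted p = 0.0824). No male sum of Akr1c18 passed the read filter. The male ASC2 reads were 138 in 2.33% of the cells of mouse 1, 21 in 2.27% of those of mouse 8 and none in mouse 4. H6pd was lower in ASC2 than in ASC1a, by −0.96 in males (adjusted p = 0.00191) and −1.16 in females (adjusted p = 9.16e-05), both under the fold limit. Against EC-like cells, 23 listed genes were tested, and 5 were called higher and 3 lower in ASC, against 22.7% called of all genes. H6pd (log2 4.54), Hsd11b2 (9.40), Akr1c18 (10.14), Star (6.70), which carries cholesterol into mitochondria, and Cyp7b1 (7.33) were higher in ASC-like cells. Sult1a1 (−3.36), a phenol sulfotransferase, Papss2 (−2.55) and Cyp1a1 (−11.20), a relative of Cyp1b1, were higher in EC-like cells. Hsd11b2, Akr1c18, Star and Cyp7b1 had entered this test through ASC-like sums alone, and Cyp1a1 through EC-like sums alone. Their calls are thus no independent support for the side on which they were high.

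For each member, the genes most like it in level were taken by Pearson correlation of log2(scaled CPM + 1). The correlation ran over 30 sums of mouse and class or subtype, which share animals but not cells. Cyp1b1 was nearest to Penk (r = 0.985), Smoc2 (0.984) and Abca8a (0.981), and Hsd11b1 to Abca8a (0.972), Smoc2 (0.961) and Bmper (0.961). Cyp1b1 and Hsd11b1 correlated with each other at 0.958, over sums that include EC-like, mural-like and macrophage-like cells, where both were low. Over the single ASC-like cells of a mouse, their rank (Spearman) correlation ran only from 0.0841 in mouse 6/7 to 0.334 in mouse 1. Among the genes nearest to Sult1e1 were Nt5e (r = 0.951) and 9330159F19Rik (0.950). Akr1c14 was nearest to Hoxa9 (0.860), Hoxa10 (0.8286) and Tsix (0.824), which overlap neighbouring genes and whose reads cannot be split by strand here. Srd5a1 had no close neighbour, with Zfp963 first at 0.698. Sult1e1 and Akr1c14 ran in opposite directions at r = −0.824 over these sums of both sexes, which restates the pattern for which they were picked.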

How the data were processed

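Smart-seq2 libraries of sorted pgWAT cells were sequenced as single reads of 50 bases. Per the labels and methods, the authors used STAR with mm10 and ERCC sequences, then Salmon and tximport (versions and strand use not given in the sources used here), and the deposited table holds raw counts of reads per gene and cell, after their removal of poor and mixed cells. ERCC reads, 1.98% of all, were left out, and no further cell was removed. Salmon can split reads between near-identical copies, and its estimates were made whole before deposit.

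Cells were clustered with Seurat 5.3.0 (3000 variable genes, 14 components, resolution 1.1), and clusters were named "X-like" when at least 3 markers of a class were detected in 25% of their cells; 192 cells stayed unnamed. No doublet caller was run. ASC subtypes are marker z-scores within a mouse. Counts were summed per mouse id and class or subtype (at least 10 cells), and genes with a sum above 600 in 2 sums were tested with the quasi-likelihood test of edgeR 4.0.16 (TMM, two-sided, R 4.3.3), called at an adjusted p below 0.05 and over 2.6-fold, limits taken from the study. Class and subtype contrasts had the mouse as a block, since their sums come from the same animals; the sex contrast had none. The id 6/7 pools 2 mice. Levels are CPM with 1 set of TMM factors over all sums. For each fit, 1 contrast was checked on simulated counts before use, with a filter of 10 counts in place of 600. DESeq2 1.42.0, the likelihood ratio test, other scalings and filters and leaving out each mouse were alternatives.

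The members and gene lists were chosen with earlier results of these data known. Named genes were the members, the listed genes called in any comparison and the 3 nearest to a member by correlation, of which 1 is not reported here. Proteins were not analysed here.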

Additional observations from a re-analysis of the deposited data

How the results depend on the processing

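The sex contrast in ASC-like cells gave 266 called genes, 171 with a filter of 10 counts in 2 sums, 550 with the likelihood ratio test, 591 with DESeq2 and 92 to 343 when each mouse id was left out. Sult1e1 differed by 10.31 (log2) with library totals alone and by 10.60 to 12.11 without 1 mouse id, and Akr1c14 by −10.58 to −12.03. Hsd11b1 differed by 1.08 with library totals alone (adjusted p = 0.200), 1.85 with the count filter of 10 (0.0888), 1.80 with classes from own markers (0.0518), 1.73 without ASC-like cells carrying markers of other classes (0.0526) and 1.36 to 2.08 without 1 mouse id. Cyp1b1 differed by 1.33 with library totals alone (adjusted p = 0.134) and by 1.77 to 2.07 without 1 mouse id. For Srd5a1, ASC-like minus EC-like cells gave 5.07 in DESeq2 (adjusted p = 0.00506).

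Counts of calls for ASC1b against ASC1a in males (15) were 9 with library totals, 5 with the filter of 10, 106 with the likelihood ratio test, 149 with DESeq2, 32 without cells near a subtype boundary and 6 to 20 without 1 mouse id; in females (17) they were 7 with the filter, 60 with the likelihood ratio test, 77 with DESeq2 and 0 to 21. For ASC2 against ASC1a, the 299 calls in males became 472 with the likelihood ratio test, 541 with DESeq2 and 154 to 339 without 1 mouse id, and the 249 in females became 401 with DESeq2 and 162 to 267. The sex by subtype interaction gave 18 (likelihood ratio test), 19 (DESeq2) and 0 to 2 calls for ASC1b, and 42, 51 and 0 to 7 for ASC2, or 7 without boundary cells. Without the mouse as a block, the counts were 2 and 3 for ASC1b in males and females, 91 and 134 for ASC2 and 0 for its interaction. In EC-like cells the 4 calls between the sexes became 1 with RLE factors, 0 with the filter, 60 with the likelihood ratio test, 105 with DESeq2 and 0 to 679 without 1 mouse id, the highest without mouse 1, when a lone male was assumed to vary like the females. The cause of these changes was not tested. No member's difference named as called changed sign. Depth limits Srd5a1 and the female Sult1e1 reads, which rest on few cells, and 3 or 4 mouse ids a sex limit the precision.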

Other observations

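The 51 cells of an unnamed female cluster, kept out of the ASC class for a high mitochondrial share (median 7.22%), had ASC markers and Hsd11b1 at 281 CPM of their reads, with a read in 49.0% of cells and at least 10 reads in 17.6%, next to Akr1c14 at 22.7 CPM and Cyp1b1 at 19.7. Another unnamed cluster of 122 cells, 114 of them female, which was led by adipocyte genes and carried EC markers, had Akr1c14 at 21.8 CPM, with a read in 27.0% of cells, and 0 Sult1e1 reads. The last unnamed cluster, of 19 male cells with epithelial markers and a median mitochondrial share of 5.91%, had 19 Sult1e1 reads in 8 cells. It had 0 Akr1c14 reads, and the source of its Sult1e1 reads was not tested. The cells of these clusters took part in no test.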
